A study of Mus musculus with 6 samples.

Results

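The 41 genes described here encode the transporters and enzymes of glycolysis, lactate handling and glycogen turnover. They were chosen by name from the known isoforms of each step, with earlier results of these data known. All 41 were found among the 48440 genes of the count table, and all 41 were among the 15257 genes with enough reads to be tested. The 9 muscle isoforms were Slc2a4, Pfkm, Pgam2, Eno3, Fbp2, Pygm, Phka1, Phkg1 and Gys1, and the 32 others are called other isoforms. The name does not mean that muscle lacks them, since Aldoa, Hk2 and Pfkfb1, among others, are also expressed there. Glycolysis breaks glucose down to pyruvate, which is reduced to lactate when oxygen or mitochondrial capacity is short, and most of its steps have several isoforms encoded by separate genes. Skeletal muscle fibers express their own isoforms of several steps and break down stored glycogen to feed contraction, whereas hypoxia-inducible factors raise the transcription of many isoforms that nearly all cells use. The question of the comparison was therefore how far the muscle isoforms and the other isoforms differed between the groups.

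RNA was sequenced from the subcutaneous mouse tissue entangled with cartilage that had been engineered from rabbit bone marrow stromal cells (BEC, cultured for 4 weeks on PLGA scaffolds). In the 0%-Axitinib group (n = 3), BEC was wrapped in an electrospun PCL/collagen membrane without drug. For the membrane of the 3%-Axitinib group (n = 3), axitinib was added before spinning at 3% of the polymer weight. Axitinib is an inhibitor of the VEGF receptor kinases. All hosts were BALB/c nude mice, which lack a functional thymus and therefore most T cells, and they were male and had been bought at an age of 6 to 8 weeks. All tissue was taken 12 weeks after implantation. The labels name the first group as untreated controls, and it was read as the 0%-Axitinib group because the deposited treatment protocol names no membrane other than those of 0% and 3%. The mouse behind each sample is not given, so p-values measure the spread between these samples, some of which may share a mouse.

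The number of reads counted on genes was 17761968, 16716411 and 18005908 in 0%-Axitinib replicates 1, 2 and 3 and 9225518, 11686084 and 18403795 in 3%-Axitinib replicates 1, 2 and 3. A count of 3, taken as the limit of detection, equals 0.163 to 0.325 CPM (counts scaled to the reads on genes, so that a sample's CPM add up to the same total), and this limit and all intervals cover counting error only, as the reads carry no molecular identifiers. CPM values below are scaled by edgeR's TMM factors and, like the shares, are listed in the order of replicates 1, 2 and 3 of each group. Unmapped reads made up 5.47%, 3.84% and 14.9% of the 0%-Axitinib libraries and 48.4%, 29.2% and 16.8% of the 3%-Axitinib libraries. The unmapped share was thus higher in each 3%-Axitinib library, and its part in the results was not tested. The counts also cannot tell mouse transcripts from rabbit transcripts that map to mouse genes. Some libraries stood apart. In 3%-Axitinib replicate 2, skeletal muscle markers were as low as in the controls, while they were high in replicates 1 and 3. Erythroid markers set apart a control: in 0%-Axitinib replicate 3 they made up 2.26% of the reads on genes against 0.0481% and 0.0404% in replicates 1 and 2, and this sample was the farthest of the 0%-Axitinib group from the other samples of its group for 20 of the 41 genes. For 16 genes the farthest was 0%-Axitinib replicate 2, which alone held many keratinocyte marker reads (0.0912% of its reads on genes).

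Most muscle isoforms were much higher in 3%-Axitinib replicates 1 and 3 than in any other sample, Gys1 and Phka1 less so. The other isoforms differed less as a set, with a median log2 fold change of 0.22 against 2.46. By the study's criterion (a change by a factor of 1.5 or more with p not above 0.05, read here as unadjusted and taken from edgeR's quasi-likelihood test), 11 of the 41 genes were higher and 1 was lower in the 3%-Axitinib group. Of all 15257 tested genes, 9.54% were higher and 11.7% were lower by the same criterion. The paper reported fewer genes by its criterion, with more of them higher than lower, so the calls here are not its calls. The 11 higher genes were made up of 7 of the 9 muscle isoforms (Slc2a4, Pfkm, Pgam2, Eno3, Fbp2, Pygm and Phkg1) and 4 of the 32 other isoforms (Aldoa, Gapdh, Eno1 and Ldhb), and the lower gene was Pfkfb2. The 4 of 32 is a share of 12.5%, close to the 9.54% of all genes, so the number of other isoforms called is no result about them. The median log2 fold change was 2.46 for the muscle isoforms, 0.22 for the other isoforms and -0.03 for all tested genes. With the total counts on genes as library size in place of edgeR's scaling, the median of all genes was -0.16, 6.54% of all genes were higher and 16.0% lower, and the members split into 8 higher and 2 lower genes, because Aldoa, Eno1 and Ldhb no longer met the criterion and Hk3 became lower. After Benjamini-Hochberg adjustment in edgeR, 0 of the 41 genes were left at 0.05 or below, where 12 had been there before it, and 0.00655% of all genes (1 gene) passed. The number of higher genes fell to 4 when 3%-Axitinib replicate 1 was left out (6.66% of all genes higher) and was largest, at 14, when replicate 2 of that group was left out (7.97%). Slc2a4, Fbp2 and Phkg1 no longer met the criterion without 0%-Axitinib replicate 2, 3%-Axitinib replicate 1 or 3%-Axitinib replicate 3. Over all fits that left out 1 sample, their log2 fold changes stayed at 2.07 to 3.09, 2.08 to 3.11 and 1.93 to 2.75. By the adjusted p of DESeq2's Wald test, 9 of the 41 genes passed at 0.05, all of them higher, as did 5.94% of all tested genes in that direction and 12.9% in either.

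For 9 of the 41 genes the groups were apart in every sample. All 3%-Axitinib samples lay above all 0%-Axitinib samples for 6 genes (Pfkm, Eno3, Gapdh, Pgk1, Eno1 and Pkm), where 14.7% of all genes did so, and below them for 3 genes (Pfkfb2, Pfkfb4 and Pgm1), where 16.6% did so. The first share of the 41 is near that of all genes and the second is below it. These numbers are therefore no result about the members, and a lack of overlap for a single gene below is a description only. Sample by sample, 3%-Axitinib replicates 1 and 3 exceeded the highest 0%-Axitinib sample for 9 of 9 muscle isoforms. Replicate 2 exceeded it for Eno3 and Pfkm and lay within the range of the 0%-Axitinib samples for the other 7. Of the 32 other isoforms, 16 lay above and 6 below the 0%-Axitinib range in replicate 1, 4 above and 11 below in replicate 2, and 14 above and 3 below in replicate 3. The 4 genes above the range in replicate 2 were Gapdh, Pgk1, Eno1 and Pkm. Over all tested genes, between 27.9% and 28.2% lay above and between 29.4% and 30.2% below the range in each of these samples, against 50%, 12.5% and 43.8% above and 18.8%, 34.4% and 9.38% below for the other isoforms in replicates 1, 2 and 3.

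**Figure D1:**
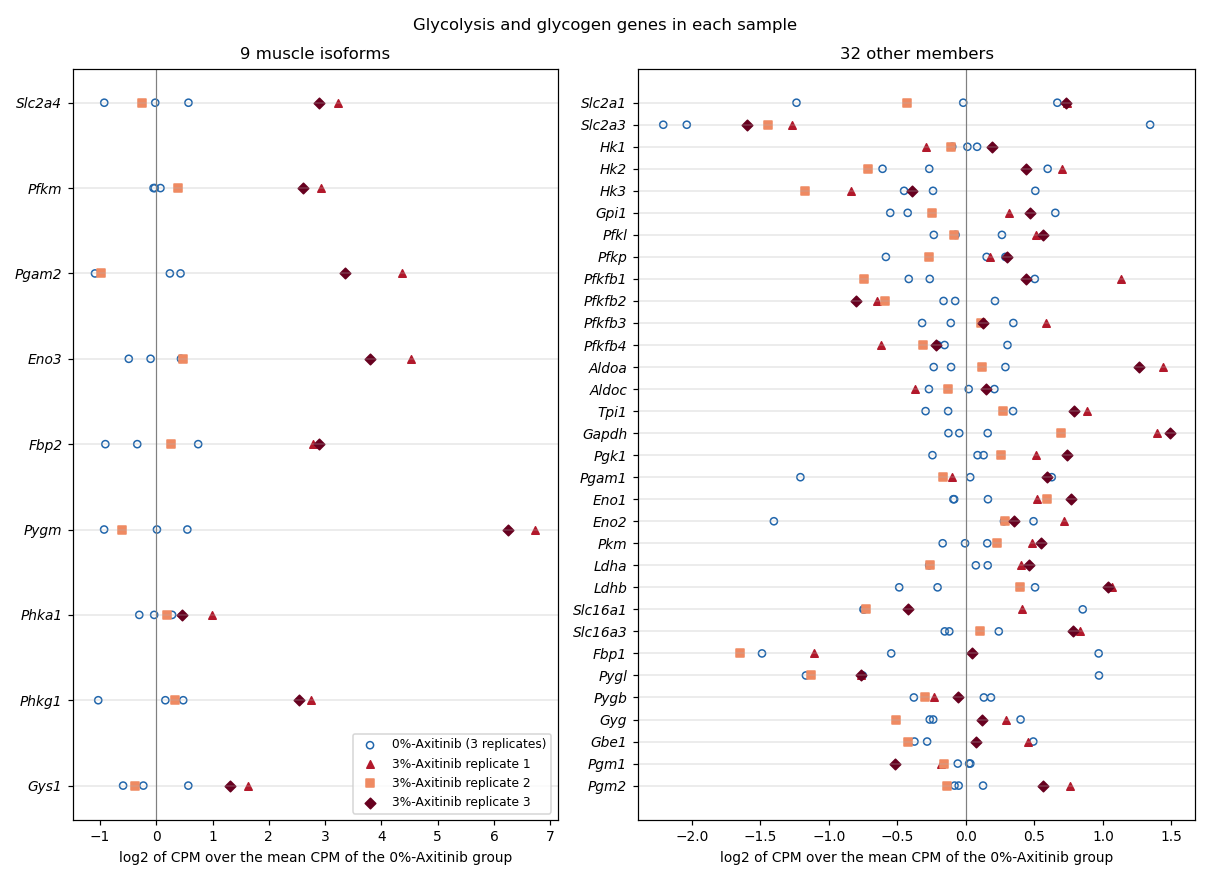
The horizontal axis gives the log2 ratio of each sample's CPM to the mean CPM of the 0%-Axitinib group for 9 muscle isoforms (left) and 32 other members (right), with 1 point per sample. 3%-Axitinib replicates 1 and 3 lie above all 0%-Axitinib samples for 9 of 9 muscle isoforms, whereas replicate 2 does so for 2 of 9.

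The skeletal muscle markers, a list of 25 sarcomere and muscle genes that holds none of the 41, moved with the muscle isoforms. This list was also chosen with earlier results of these data known. Of the 24 tested markers, 21 met the criterion as higher and 0 as lower; the median of their log2 fold changes was 6.74. Their summed share of the reads on genes was 0.0215%, 0.00271% and 0.00470% in 0%-Axitinib replicates 1, 2 and 3 and 1.79%, 0.00330% and 0.948% in 3%-Axitinib replicates 1, 2 and 3. The samples with many muscle reads were thus 3%-Axitinib replicates 1 and 3. Acta1, skeletal muscle actin and the marker with the highest mean over the samples, was measured at 35.0, 0.291 and 0.0542 CPM without axitinib and 3913, 0.0908 and 1846 CPM with 3% axitinib, where 0.0542 and 0.0908 CPM are 1 read each and below the limit of detection. Acta1 itself missed the criterion, with an unadjusted p of 0.0548. In 3%-Axitinib replicate 2, 6 of the 25 markers had no read (Myh4, Tnnc2, Myot, Tcap, Ckm and Xirp2), and 1 marker (Myoz1) exceeded the 0%-Axitinib range, whereas no marker was at 0 in replicates 1 and 3. In the 0%-Axitinib group, 1, 3 and 6 markers had no read in replicates 1, 2 and 3. The part of muscle content in the differences of the 41 genes was not tested. The fits given at the end take out the difference of the muscle-rich samples by construction, so they are no test of it. In such bulk samples, more cells of a type and more RNA per cell cannot be told apart.

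Glucose enters cells through facilitative transporters. Slc2a4 (GLUT4, chr11:69942539-69948188) is the insulin-responsive transporter of muscle and fat, and positions are those of the GENCODE gene on GRCm38. It was measured at 6.30, 3.31 and 9.53 CPM without axitinib and 61.0, 5.36 and 47.7 CPM with 3% axitinib. Replicates 1 and 3 of the 3%-Axitinib group were high, and replicate 2 lay between the 0%-Axitinib samples. Slc2a4 rose with a log2 fold change of 2.57 (SE 0.84, adjusted p = 0.143). Slc2a1 (GLUT1), the transporter of most cell types and a known hypoxia target, did not pass the test, with 99.9, 161 and 42.9 CPM without axitinib and 169, 75.2 and 168 CPM with 3% axitinib. The groups overlapped, since 0%-Axitinib replicate 2 was close to the highest 3%-Axitinib samples. Slc2a3 (GLUT3), a transporter of high affinity in neurons and activated leukocytes, was measured at 11.5, 12.9 and 135 CPM without axitinib and 22.04, 19.5 and 17.6 CPM with 3% axitinib. 1 sample, 0%-Axitinib replicate 3, stood far above the others, and the log2 fold change of -1.44 became 0.69 without it, when Slc2a3 met the criterion as higher. Per kilobase of exon, Slc2a4 held 5.68%, 1.96% and 8.14% of the reads of the 3 transporters without axitinib and 25.5%, 6.00% and 21.4% with 3% axitinib. Slc2a3 held 55.5% in 0%-Axitinib replicate 3 and at most 10.5% in any other sample.

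Hexokinases trap glucose by phosphorylation. None of their genes met the criterion in edgeR's test with all samples, TMM scaling and filtered genes. Hk3, an isoform of myeloid cells, was measured at 245, 475 and 283 CPM without axitinib and 187, 148 and 254 CPM with 3% axitinib, with a log2 fold change of -0.77 (SE 0.34, adjusted p = 0.230). All values of the 3%-Axitinib group were below 0%-Axitinib replicate 3, but replicate 3 of the 3%-Axitinib group lay above 0%-Axitinib replicate 1. Hk3 met the criterion as lower in 3 of the 6 fits that left out 1 sample, with log2 fold changes between -0.996 and -0.428 over all 6. With all samples, it did so with total counts (log2 fold change -0.89), with DESeq2's Wald test (-0.77) and without the filter (-0.78). Hk2, an isoform of muscle, fat and hypoxic cells, was measured at 36.4, 66.3 and 28.7 CPM without axitinib and 71.4, 26.7 and 59.4 CPM with 3% axitinib, and its groups overlapped. Hk1, the most widely expressed isoform, differed least of the 3, with a log2 fold change of -0.06 (SE 0.20, adjusted p = 0.885). Per kilobase of exon, Hk3 held 77.4%, 83.5% and 79.5% of the hexokinase reads without axitinib and 68.3%, 69.5% and 72.5% with 3% axitinib, so that it was the leading isoform in every sample and its share was lower in each 3%-Axitinib sample. The summed level of the 3 hexokinases was 112 ± 36.9 CPM per kilobase without axitinib and 75.9 ± 18.7 with 3% axitinib (SD, n = 3 each), a difference within the spread. Gpi1, which turns glucose 6-phosphate into fructose 6-phosphate, was measured at 358, 391 and 826 CPM without axitinib and 654, 442 and 726 CPM with 3% axitinib, and its groups overlapped because 0%-Axitinib replicate 3 was the highest sample.

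Phosphofructokinase commits sugar to glycolysis. Its muscle isoform Pfkm (chr15:98092589-98132451) was measured at 29.5, 29.1 and 31.7 CPM without axitinib and 230.3, 39.2 and 184 CPM with 3% axitinib. The 0%-Axitinib samples lay close together and each 3%-Axitinib sample was above them, replicate 2 by a small margin. Pfkm rose with a log2 fold change of 2.33 (SE 0.59, adjusted p = 0.103). It met the criterion in each of the 6 fits that left out 1 sample, with log2 fold changes between 1.90 and 2.78. The liver-type isoform Pfkl and the platelet-type isoform Pfkp did not pass the test, with log2 fold changes of 0.36 and 0.09. Per kilobase, Pfkm held 24.7%, 21.2% and 31.1% of the phosphofructokinase reads without axitinib and 66.1%, 32.7% and 59.6% with 3% axitinib. In replicates 1 and 3 of the 3%-Axitinib group it was the leading isoform, and in replicate 2 its share of 32.7% (exact 95% interval 30.5% to 35.1%) was close to the 31.1% of 0%-Axitinib replicate 3. The exons of Pfkm are shared over 10.2% of their length by the gene model Gm26513 on the same strand, to which reads could be lost.

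The PFKFB enzymes make and degrade fructose 2,6-bisphosphate, the activator of phosphofructokinase. Pfkfb2 (chr1:130689182-130729253), the isoform known from heart and kidney, was measured at 8.33, 8.84 and 10.8 CPM without axitinib and 5.92, 6.18 and 5.31 CPM with 3% axitinib. It was the only member lower by the criterion, with every 3%-Axitinib sample below every 0%-Axitinib sample and a log2 fold change of -0.69 (SE 0.27, adjusted p = 0.189). The call did not hold in any of the 6 fits that left out 1 sample, where the log2 fold change lay between -0.76 and -0.57, and Gm29427 shares 17.4% of the exons of Pfkfb2. Pfkfb4, a hypoxia-inducible isoform, was measured at 68.8, 94.5 and 66.4 CPM without axitinib and 49.9, 61.5 and 65.8 CPM with 3% axitinib, likewise without overlap of the groups, and did not pass the test (log2 fold change -0.37). Pfkfb3, a hypoxia-inducible isoform whose kinase activity far exceeds its phosphatase activity, had a log2 fold change of 0.29 (SE 0.24, adjusted p = 0.491), and its groups overlapped. Per kilobase, the share of Pfkfb3 in the PFKFB reads was 32.8%, 33.3% and 29.2% without axitinib and 49.5%, 39.2% and 37.3% with 3% axitinib, and that of Pfkfb4 was 60.0%, 61.0% and 59.7% without axitinib and 40.7%, 55.2% and 55.5% with 3% axitinib. The balance between these hypoxia-inducible isoforms thus lay further toward Pfkfb3 in each 3%-Axitinib sample, and whether Pfkfb4 was the larger in replicates 2 and 3 depends on the division by length. Pfkfb1, the isoform of liver and muscle, was at most 6.58 CPM in any sample and had a log2 fold change of 0.47.

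The steps from aldolase to pyruvate kinase are encoded by several of the genes with the most reads per kilobase among the 41. Gapdh (chr6:125161715-125166467), which oxidizes glyceraldehyde 3-phosphate and often serves as a reference gene, was measured at 905, 1103 and 956 CPM without axitinib and 2593, 1601 and 2772 CPM with 3% axitinib. The groups did not overlap, and replicate 2 was the lowest of the 3%-Axitinib samples. Gapdh rose with a log2 fold change of 1.23 (SE 0.33, adjusted p = 0.112), and it met the criterion in each of the 6 fits that left out 1 sample (log2 fold changes of 1.08 to 1.44). Aldoa (chr7:126795234-126800751), the aldolase of muscle and most other tissues, was measured at 1133, 1491 and 1037 CPM without axitinib and 3311, 1323 and 2926 CPM with 3% axitinib. Here replicates 1 and 3 of the 3%-Axitinib group were high and replicate 2 lay below 0%-Axitinib replicate 2. Aldoa rose with a log2 fold change of 1.05 (SE 0.42, adjusted p = 0.199), and the call held without 3%-Axitinib replicate 2 and was lost without any other sample. Its log2 fold change lay between 0.81 and 1.36 in these fits. The gene stands among the other isoforms here but is also the main aldolase of muscle. Its reads made up at least 99.0% of the aldolase reads per kilobase in every sample. Aldoc, the brain-type aldolase, was between 9.76 and 14.6 CPM in all samples, with a log2 fold change of -0.10.

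Tpi1, Pgk1 and Pkm encode triose phosphate isomerase, phosphoglycerate kinase and pyruvate kinase, each the only gene of its step among the 41. Counts per gene do not tell splice forms apart. Pgk1, a textbook hypoxia target, was measured at 308, 399 and 387 CPM without axitinib and 521, 436 and 607 CPM with 3% axitinib, without overlap of the groups. Its log2 fold change of 0.52 did not pass the test (adjusted p = 0.262 in edgeR). Pkm was measured at 1432, 1795 and 1604 CPM without axitinib and 2249.9, 1886 and 2356 CPM with 3% axitinib, again without overlap, and did not pass the test, with a log2 fold change of 0.43. For both genes, replicate 2 was the lowest of the 3%-Axitinib samples and lay just above the highest 0%-Axitinib sample. Tpi1 had a log2 fold change of 0.68 (SE 0.30, adjusted p = 0.224), and replicate 2 of the 3%-Axitinib group lay within the 0%-Axitinib range. Counts of the genes with processed pseudogenes are uncertain where a read fits more than 1 place. Of all 50-base stretches of their transcripts, 53.9% are shared with another gene for Pgk1, 36.2% for Pgam1, 26% for Eno1, 25.8% for Pkm, 24.7% for Gapdh and 21% for Ldhb, against 0% for Eno3 and Pgam2.

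Phosphoglycerate mutase and enolase have clear muscle isoforms. Pgam2 (chr11:5801640-5803733), the muscle mutase, was measured at 4.37, 5.001 and 1.68 CPM without axitinib and 78.2, 1.82 and 38.6 CPM with 3% axitinib. Replicates 1 and 3 of the 3%-Axitinib group stood far above the other samples, and replicate 2, with 20 reads, lay within the 0%-Axitinib range. Pgam2 rose with a log2 fold change of 3.42 (SE 1.14, adjusted p = 0.148), a call that was lost without 0%-Axitinib replicate 3 (log2 fold change 3.07) or 3%-Axitinib replicate 1 (2.46), and also with limma-voom (2.44) and with a replicate block (2.88). Pgam1, the ubiquitous mutase, was measured at 185, 279 and 78.2 CPM without axitinib and 168, 161 and 272 CPM with 3% axitinib, and its groups overlapped, with 0%-Axitinib replicates 2 and 3 as the highest and the lowest sample. Per kilobase, Pgam2 held 5.29%, 4.06% and 4.82% of the mutase reads without axitinib and 52.3%, 2.59% and 25.1% with 3% axitinib. The share in 3%-Axitinib replicate 2 (exact 95% interval 1.60% to 3.96%) was the lowest of all samples.

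Eno3 (chr11:70657202-70662513), the enolase of muscle fibers, was measured at 16.9, 12.9 and 24.6 CPM without axitinib and 422, 25.2 and 252 CPM with 3% axitinib. Replicates 1 and 3 of the 3%-Axitinib group were an order of magnitude above the others, and replicate 2 lay just above the highest 0%-Axitinib sample. Eno3 rose with a log2 fold change of 3.68 (SE 0.92, adjusted p = 0.101), and it met the criterion in each of the 6 fits that left out 1 sample, with log2 fold changes of 2.95 to 4.22. Eno1 (chr4:150236721-150248879), the ubiquitous enolase and a hypoxia target, was measured at 533, 635 and 535 CPM without axitinib and 816, 858 and 968 CPM with 3% axitinib. All 3%-Axitinib samples lay above all 0%-Axitinib samples, and replicate 2 was as high as the others of its group. Eno1 rose with a log2 fold change of 0.63 (SE 0.25, adjusted p = 0.185), and the call held without 0%-Axitinib replicate 3 and was lost without any other sample, with log2 fold changes between 0.56 and 0.72. Its near copy Eno1b, which is counted apart, was measured at 109, 129 and 149 CPM without axitinib and 188, 215 and 249 CPM with 3% axitinib, likewise without overlap of the groups. Eno2, the neuronal enolase, had a log2 fold change of 0.46 (SE 0.47, adjusted p = 0.566), and its groups overlapped. Per kilobase, Eno3 held 6.44%, 4.25% and 11.2% of the enolase reads without axitinib and 53.7%, 6.69% and 39.3% with 3% axitinib. It was the leading enolase per kilobase in 3%-Axitinib replicate 1 only, where Eno1 led by undivided reads, and Eno1 led in the other 5 samples.

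**Figure D2:**
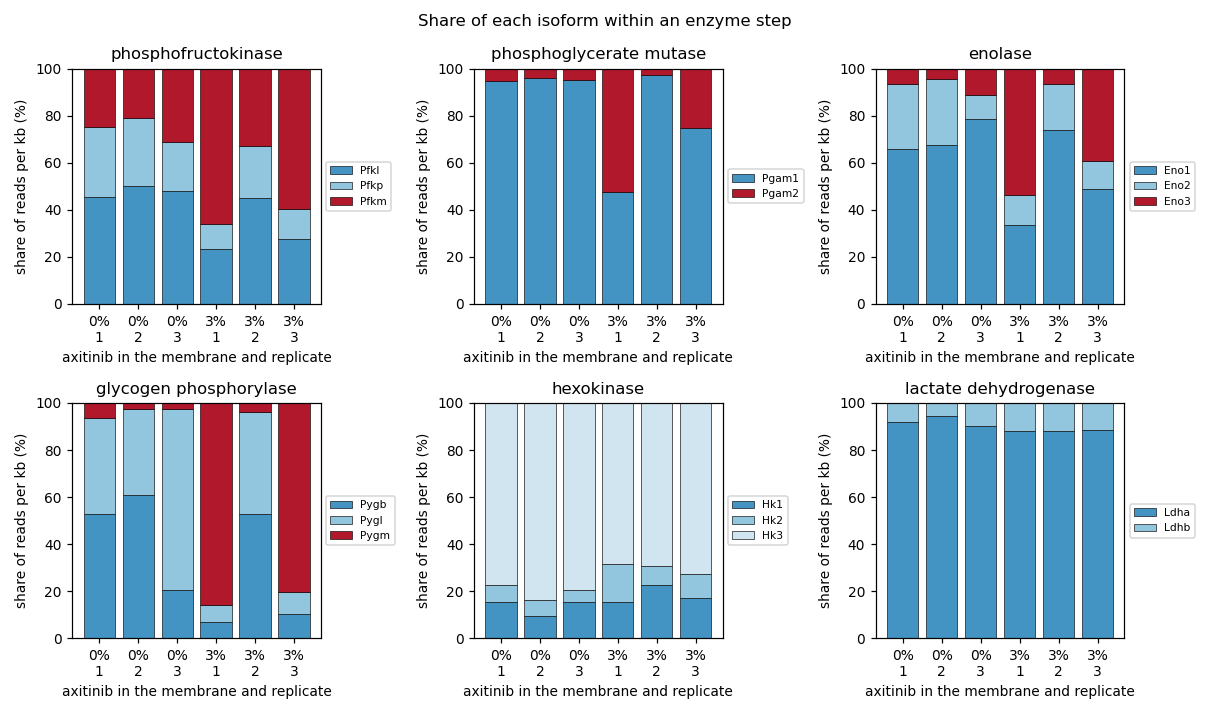
The vertical axis gives the share (%) of each isoform in the reads per kilobase of exon of its enzyme step in each of the 6 samples, with muscle isoforms in red. Pygm holds 85.9% and 80.2% of the phosphorylase reads in 3%-Axitinib replicates 1 and 3 and no more than 6.56% in the other 4 samples.

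Lactate dehydrogenase closes anaerobic glycolysis. Ldhb (chr6:142490249-142507957), the isoform of oxidative tissue such as heart, was measured at 24.3, 20.003 and 39.9 CPM without axitinib and 59.0, 36.9 and 57.8 CPM with 3% axitinib. Replicates 1 and 3 of the 3%-Axitinib group were high, and replicate 2 lay just below 0%-Axitinib replicate 3. Ldhb rose with a log2 fold change of 0.87 (SE 0.32, adjusted p = 0.171), and the log2 fold change without 0%-Axitinib replicate 3 was 1.21. The call held without that sample or 3%-Axitinib replicate 2 and was lost without any of the other 4. Over these fits the log2 fold change of Ldhb lay between 0.67 and 1.21. Ldha, the isoform that favors lactate and a textbook hypoxia target, was measured at 579, 733 and 778 CPM without axitinib and 919, 581 and 958 CPM with 3% axitinib, and it did not pass the test (log2 fold change 0.23). Per kilobase, Ldhb held 8.14%, 5.44% and 9.75% of the lactate dehydrogenase reads without axitinib and 11.9%, 11.8% and 11.3% with 3% axitinib, higher in each 3%-Axitinib sample than in each 0%-Axitinib sample. Of the lactate carriers, Slc16a3 (MCT4), which exports lactate from glycolytic cells and is hypoxia-inducible, was measured at 110.4, 145 and 113 CPM without axitinib and 219, 132 and 211 CPM with 3% axitinib. Replicate 2 of the 3%-Axitinib group lay within the 0%-Axitinib range, and Slc16a3 just missed the criterion, with a log2 fold change of 0.61 (SE 0.26, adjusted p = 0.218). Slc16a1 (MCT1), the widely expressed carrier, had a log2 fold change of -0.17 that became 0.58 without 0%-Axitinib replicate 3, where it was 76.3 CPM.

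Fructose bisphosphatase reverses the step of phosphofructokinase. Fbp2 (chr13:62836877-62858422), the muscle isoform, was measured at 2.08, 0.930 and 0.596 CPM without axitinib and 8.88, 1.45 and 9.58 CPM with 3% axitinib. These are low levels, with 11 to 40 reads in the 0%-Axitinib samples, and replicates 1 and 3 of the 3%-Axitinib group were above all others. Fbp2 rose with a log2 fold change of 2.46 (SE 0.80, adjusted p = 0.143). Fbp1, the isoform of liver and of some macrophages, was measured at 5.57, 2.85 and 16.1 CPM without axitinib and 3.73, 2.54 and 8.43 CPM with 3% axitinib, and its log2 fold change of -0.73 became 0.23 without 0%-Axitinib replicate 3. Per kilobase, Fbp2 held 30.2%, 27.4% and 4.11% of the fructose bisphosphatase reads without axitinib and 73.4%, 39.8% and 56.8% with 3% axitinib, but replicate 2 of the 3%-Axitinib group rests on 16 Fbp2 reads, and its exact 95% interval of 25.1% to 55.9% holds the shares of 0%-Axitinib replicates 1 and 2. Fbp1 and Fbp2 are neighbors on chromosome 13 and do not overlap.

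Glycogen breakdown held the largest difference. Pygm (chr19:6384399-6398459), the muscle glycogen phosphorylase whose loss causes McArdle disease, was measured at 6.66, 2.33 and 4.55 CPM without axitinib and 492, 2.91 and 350.0 CPM with 3% axitinib. The levels in 3%-Axitinib replicates 1 and 3 were far above all others, and replicate 2, with 32 reads, lay within the 0%-Axitinib range. Pygm rose with a log2 fold change of 5.96 (SE 1.57, adjusted p = 0.109), and it met the criterion in each of the 6 fits that left out 1 sample (log2 fold changes of 5.29 to 6.54) but not with limma-voom (log2 fold change 4.20). The liver isoform Pygl was measured at 88.2, 66.2 and 292 CPM without axitinib and 87.5, 67.8 and 87.5 CPM with 3% axitinib. Here 0%-Axitinib replicate 3 stood alone, and the log2 fold change of -0.88 became 0.06 without it. Pygb, the brain-type isoform, was between 54.4 and 80.4 CPM in all samples and did not pass the test. Per kilobase, Pygm held 6.56%, 2.73% and 2.57% of the phosphorylase reads without axitinib and 85.9%, 3.98% and 80.2% with 3% axitinib. It was the leading phosphorylase in 3%-Axitinib replicates 1 and 3, and its share in replicate 2 had an exact 95% interval of 2.75% to 5.55%.

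Phosphorylase kinase activates glycogen phosphorylase. Its catalytic muscle subunit Phkg1 (chr5:129863421-129898549) was measured at 1.51, 0.465 and 1.19 CPM without axitinib and 7.68, 1.36 and 6.64 CPM with 3% axitinib. Replicate 2 of the 3%-Axitinib group lay within the 0%-Axitinib range, and the other 3%-Axitinib samples were above it. Phkg1 rose with a log2 fold change of 2.30 (SE 0.74, adjusted p = 0.141). Sumf2 on the other strand overlaps 9.68% of its exons, and whether reads were counted by strand is not given in the sources used here. The muscle regulatory subunit Phka1 was measured at 10.4, 8.61 and 12.9 CPM without axitinib and 21.2, 12.1 and 14.7 CPM with 3% axitinib. It did not pass the test (log2 fold change 0.59), and replicate 2 lay within the 0%-Axitinib range.

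Glycogen synthesis was represented by 5 genes, and none met the criterion. Gys1, the glycogen synthase of muscle and of most tissues other than liver, was measured at 24.7, 31.7 and 55.2 CPM without axitinib and 115, 28.6 and 92.3 CPM with 3% axitinib. Replicates 1 and 3 of the 3%-Axitinib group were the highest samples, replicate 2 was among the lowest, and Gys1 had a log2 fold change of 1.08 (SE 0.53, adjusted p = 0.265). Gyg, the glycogenin that primes the chain, and Gbe1, the branching enzyme, had log2 fold changes of 0.01 and 0.08. Pgm2 was measured at 40.7, 46.1 and 39.9 CPM without axitinib and 71.6, 38.3 and 62.4 CPM with 3% axitinib, with a log2 fold change of 0.44, and Pgm1 at 25.7, 24.1 and 25.5 CPM without axitinib and 22.2, 22.4 and 17.5 CPM with 3% axitinib, with a log2 fold change of -0.28 and no overlap of the groups. Both symbols stand for phosphoglucomutases, which exchange glucose 1-phosphate and glucose 6-phosphate. The symbols Pgm1 and Pgm2 have been exchanged between mouse annotation releases, so which enzyme each count belongs to is uncertain. Both Gys1 and Pfkm were measured in samples with hardly any muscle marker reads, at 31.7 and 29.1 CPM in 0%-Axitinib replicate 2, so these genes are not limited to muscle fibers here.

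A list of 57 other genes of the pathway held 47 tested genes, of which 7 (14.9%) were higher and 5 (10.6%) lower by the criterion, close to the 9.54% and 11.7% of all genes, so these numbers are no result about the list. The median log2 fold change of the 47 genes was -0.01. Pdk4, a kinase that shuts pyruvate out of mitochondria and is abundant in muscle, was measured at 30.1, 29.1 and 9.86 CPM without axitinib and 543, 10.8 and 217 CPM with 3% axitinib. Like most muscle isoforms, it was high in replicates 1 and 3 and within the 0%-Axitinib range in replicate 2, and it rose with a log2 fold change of 3.48 (SE 1.20, adjusted p = 0.155). Ppp1r3c, a subunit that brings a phosphatase to glycogen, rose with a log2 fold change of 1.74, with replicate 2 just below the 0%-Axitinib range. Pdk2, another kinase of pyruvate dehydrogenase, rose as well, at 29.9, 27.4 and 20.1 CPM without axitinib and 101, 32.4 and 85.7 CPM with 3% axitinib, without overlap of the groups. The glycogen-targeting subunit of muscle, Ppp1r3a, had reads in too few samples to be tested and was at 0.312, 0 and 0 CPM without axitinib and 20.1, 0 and 7.39 CPM with 3% axitinib.

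The other called genes of this list had other patterns. Bsg (basigin), the chaperone of the lactate carriers and the most abundant gene of the list, was measured at 374, 360.5 and 553 CPM without axitinib and 828, 854 and 729 CPM with 3% axitinib. Replicate 2 was here the highest sample, and Bsg rose with a log2 fold change of 0.90 (SE 0.28, adjusted p = 0.134). G6pc3, the ubiquitous glucose 6-phosphatase, rose with a log2 fold change of 0.62, and Ldhd, which oxidizes D-lactate, with one of 0.91, both without overlap of the groups. Phka2, the liver regulatory subunit of phosphorylase kinase, rose with a log2 fold change of 0.67, with overlap of the groups. The 5 lower genes were Ppp1r3b, the liver-type glycogen-targeting subunit, with a log2 fold change of -1.11, Pgm2l1, which makes glucose 1,6-bisphosphate, with -1.13, the monocarboxylate carrier Slc16a7 (MCT2) with -0.97, the phosphoglucomutase relative Pgm5 with -0.77 and the mitochondrial glycerol phosphate dehydrogenase Gpd2 with -0.65. Pgm2l1 was measured at 19.6, 19.6 and 21.3 CPM without axitinib and 9.54, 9.72 and 8.49 CPM with 3% axitinib, and each 3%-Axitinib sample lay below each 0%-Axitinib sample. Pgk2, the testis isoform, had no read in any sample.

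To set the other isoforms beside genes that answer to hypoxia but have no place in glycolysis, 24 hypoxia-inducible genes were used. They, too, were chosen with earlier results of these data known. By the criterion, 6 were higher (Vegfa, Car12, Bnip3, P4ha2, Ddit4 and Fam162a) and 0 lower, a share of 25% against 9.54% of all genes, and their median log2 fold change was 0.57. Their mean log2 level relative to the 0%-Axitinib group was 0.08, 0.31 and -0.39 in 0%-Axitinib replicates 1, 2 and 3 and 0.81, 0.33 and 0.48 in 3%-Axitinib replicates 1, 2 and 3. That of the other isoforms was -0.15, 0.09 and 0.06, and then 0.34, -0.16 and 0.35. Within the 3%-Axitinib group both lists lay lowest in replicate 2, where the hypoxia list was about as high as in 0%-Axitinib replicate 2. In 3%-Axitinib replicates 1, 2 and 3, 20, 8 and 10 of the 24 genes exceeded the 0%-Axitinib range, where 27.9%, 28.2% and 28.0% of all tested genes did so. Ddit4, a stress-induced inhibitor of mTORC1, was measured at 48.5, 42.6 and 47.1 CPM without axitinib and 192, 75.1 and 149.6 CPM with 3% axitinib. It rose with a log2 fold change of 1.59 (SE 0.34, adjusted p = 0.0972), and replicate 2 was the lowest of its group, as it was for Bnip3. Car12 and P4ha2 were highest in that sample, and Vegfa and Fam162a were lowest in replicate 3 of the group. The summed share of the list was 0.299%, 0.416% and 0.160% of the reads on genes in the 0%-Axitinib samples and 0.336%, 0.249% and 0.268% in the 3%-Axitinib samples, where Plin2, its most abundant gene, sets much of the sum. No gene of the list was at 0 in any sample.

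Markers of other cell types also differed between the samples, and their part in the results was not tested. The calls of each list stand beside 9.54% of all genes higher and 11.7% lower. Of the leukocyte markers, 0 of 11 were higher and 4 lower, and their share of the reads was 1.05%, 1.12% and 2.52% in the 0%-Axitinib samples and 0.729%, 0.823% and 1.42% in the 3%-Axitinib samples, with Lyz2 the most abundant. In 0%-Axitinib replicate 3, S100a8 (6322 CPM) and S100a9 (10629 CPM) made up most of the sum, and both were at most 102 CPM in any other sample. Of the 4 lower genes, S100a9, Cd3e and Cd79a were by far the highest in that sample and Ptprc was not, while the groups of Cd79a and Ptprc did not overlap. Adipocyte markers (1 of 9 higher, 2 lower, Fabp4 the most abundant) made up 0.0851%, 0.0761% and 0.1001% against 0.0642%, 0.0311% and 0.0421%. Fibroblast markers (1 of 6 higher, 0 lower, Col1a1 and Col1a2 the most abundant) made up 2.77%, 1.32% and 1.02% against 2.19%, 6.62% and 2.33%. 3%-Axitinib replicate 2 was thus the sample richest in collagen transcripts and poor in muscle transcripts. Cartilage markers (5 of 7 tested genes higher, 0 lower, Comp and Col2a1 the most abundant) made up 0.0384%, 0.0220% and 0.0166% against 0.0333%, 0.139% and 0.0586%, with replicate 2 again highest. Nerve and Schwann cell markers (2 of 7 tested genes higher, 0 lower, Mbp the most abundant on average) made up 0.114%, 0.0265% and 0.0191% against 0.126%, 0.124% and 0.106%. None of the 5 smooth muscle markers met the criterion, and their share was 0.0394%, 0.0110% and 0.0201% against 0.0349%, 0.0309% and 0.0145%, with Acta2 and Tagln the most abundant.

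The remaining lists each had most of their reads in a single 0%-Axitinib sample. All 5 tested erythroid markers, of 6, were lower, and the share of the whole list, 2.26% in 0%-Axitinib replicate 3, stood against 0.0166%, 0.0358% and 0.0502% in the 3%-Axitinib samples, with Hbb-bs the most abundant. This is the sample in which Slc2a3, Slc16a1, Fbp1 and Pygl were high. Both tested keratinocyte markers, of 5, were lower, and the share of the whole list was 0.0912% in 0%-Axitinib replicate 2 and at most 0.000693% in any other sample, with Krt1 the most abundant on average. Of the adipocyte markers, Lep had no read in 3%-Axitinib replicates 2 and 3, and of the cartilage markers, Matn1 had at most 4 reads in any sample.

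Promoter letters were also compared between the kinds of isoforms. RefSeq promoters (GRCm38.p6, 250 bases before to 50 after the start) were given for 8 of the 9 muscle isoforms and 31 of the 32 other isoforms, with Slc2a4 and Slc2a3 as the missing ones. Both strands were searched, and ACGTG on one strand can overlap ACGTG on the other. CAGCTG, an E-box of the kind that myogenic factors bind, was found for 6 of 8 muscle isoforms (75%), 5 of 31 other isoforms (16.1%) and 18.3% of 27025 genes. ACGTG or GCGTG, the core letters of a hypoxia response element, were found for 5 of 8 muscle isoforms (62.5%), 26 of 31 other isoforms (83.9%) and 46.7% of all genes. The motifs are short and a match is a description, not a site. The promoters of the muscle isoforms Eno3 and Pygm and of the other isoforms Gapdh and Pgk1, for which the groups differed or did not overlap, show both kinds. They lie at chr11:70656926-70657225 (plus strand), chr19:6384158-6384457 (plus strand), chr6:125165724-125166023 (minus strand) and chrX:106186850-106187149 (plus strand). The sequences are from RefSeq and written 5′ to 3′, with CAGCTG and both hypoxia motifs, on either strand, in capitals.
Eno3: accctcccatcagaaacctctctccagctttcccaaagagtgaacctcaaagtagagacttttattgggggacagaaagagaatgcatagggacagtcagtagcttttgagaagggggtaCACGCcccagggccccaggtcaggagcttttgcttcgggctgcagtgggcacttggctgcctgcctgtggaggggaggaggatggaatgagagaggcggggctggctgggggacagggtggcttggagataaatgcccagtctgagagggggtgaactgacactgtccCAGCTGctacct
Pygm: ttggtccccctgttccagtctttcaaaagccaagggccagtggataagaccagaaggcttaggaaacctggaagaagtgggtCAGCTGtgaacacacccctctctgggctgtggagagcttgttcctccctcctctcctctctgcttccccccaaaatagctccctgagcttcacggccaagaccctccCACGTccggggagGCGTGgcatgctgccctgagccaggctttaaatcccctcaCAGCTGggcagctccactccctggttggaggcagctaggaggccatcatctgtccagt
Gapdh: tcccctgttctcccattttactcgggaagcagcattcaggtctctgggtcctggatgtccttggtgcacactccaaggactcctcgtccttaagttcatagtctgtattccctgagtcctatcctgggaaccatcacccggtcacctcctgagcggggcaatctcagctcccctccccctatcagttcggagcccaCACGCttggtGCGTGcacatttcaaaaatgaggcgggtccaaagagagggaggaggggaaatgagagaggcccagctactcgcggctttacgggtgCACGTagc
Pgk1: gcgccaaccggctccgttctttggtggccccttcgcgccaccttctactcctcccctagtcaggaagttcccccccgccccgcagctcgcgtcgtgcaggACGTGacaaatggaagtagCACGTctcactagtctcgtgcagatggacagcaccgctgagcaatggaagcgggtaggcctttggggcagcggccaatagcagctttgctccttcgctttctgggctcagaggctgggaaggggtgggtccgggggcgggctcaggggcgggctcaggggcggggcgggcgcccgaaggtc
The Eno3 promoter holds CAGCTG once, within the 50 bases after the start, and the Pygm promoter holds it at a pair of places, whereas those of Gapdh and Pgk1 hold only the hypoxia motifs.

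With only 3%-Axitinib replicate 2 in its group, a comparison chosen after seeing the data and in which the lone sample is assumed to vary like the other group, 0 of the 41 genes met the criterion in edgeR's test, and of all genes in that fit 3.26% were higher and 3.55% lower. The median log2 fold change was then 0.18 for the muscle isoforms, -0.21 for the other isoforms and -0.13 for all genes tested in that fit. Of the other isoforms called higher with all samples, the log2 fold change was 0.69 for Gapdh, 0.59 for Eno1, 0.39 for Ldhb and 0.11 for Aldoa. Of the muscle isoforms so called, it was 0.47 for Eno3, 0.38 for Pfkm, 0.35 for Phkg1 and 0.25 for Fbp2. It was -0.25 for Slc2a4, -0.65 for Pygm and -1.03 for Pgam2. With the mean of the skeletal muscle markers as a covariate, again 0 of the 41 genes met the criterion, beside 6.08% of all genes higher and 5.70% lower, and the medians were 0.29 and -0.09. The covariate is high in 3%-Axitinib replicates 1 and 3 only, so it takes up part of the group difference by construction. Under it, the log2 fold change was 0.65 for Eno1, 0.85 for Gapdh, 0.51 for Ldhb and 0.32 for Aldoa. For the muscle isoforms it was 0.88 for Eno3, 0.69 for Pfkm, 0.61 for Phkg1 and 0.58 for Fbp2. It was 0.29 for Pygm, 0.15 for Slc2a4 and -0.40 for Pgam2. Without 3%-Axitinib replicate 2, 14 of the 41 genes were higher, beside 7.97% of all genes higher and 9.28% lower. The adjusted p of edgeR's test then passed 0.05 for Pfkm, Eno3 and Pygm. The share of all genes that passed in that fit is not given here, so this number is no result about the members.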

How the data were processed

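RNA-seq counts of 6 samples, 3 per group, were analysed. The authors selected poly(A) RNA, filtered the reads with fastp, aligned them to mm10 (GRCm38) with STAR (version 2.5.2b in the submitters' processing notes) and deposited unnormalized read counts for 48440 genes by symbol. The annotation release and the strand setting are not given in the sources used here. The 4 lines of reads given to no gene (multimapping reads 2.71% to 6.65%) entered neither library sizes nor tests. In R 4.3.3, genes were filtered with filterByExpr (minimum count 10, minimum total 15), scaled with TMM and tested with edgeR 4.0.16 (quasi-likelihood test, Benjamini-Hochberg adjustment over 15257 genes). The members and lists were chosen with earlier results of these data known. All members are described, and of the other pathway genes those that met the criterion are named; Ppp1r3a, Pgk2, Ddit4 and Eno1b, and the 4 promoters printed, were picked after values were seen. Shares within a step are reads per kilobase of exon union (GENCODE vM21), with exact binomial intervals carried to that scale. Copies were sought as 50-base stretches shared between GENCODE transcripts. Of the 2 GENCODE entries named Aldoa, the first was used. Alternatives used DESeq2 1.42.0, limma 3.58.1 (voom), other scalings and filters, fold 2, a replicate block, a muscle covariate and samples left out. The tests were also tried on simulated counts, and the outcome is not reported here. The values of 1 listed gene are not reported here. Plots were drawn with matplotlib 3.10.9 in Python 3.11.15.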

Additional observations from a re-analysis of the deposited data

How the results depend on the processing

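Of the members, 41 of 41 stayed on their side of the criterion with DESeq2's size factors and with TMM without muscle genes, and 38 of 41 with DESeq2's Wald test. The number of higher members (11) was 7 with limma-voom (without Slc2a4, Pgam2, Pygm and Aldoa) and 0 both with the muscle covariate and with only 3%-Axitinib replicate 2 in its group. It ranged from 4 to 14 with each sample left out. Of all genes, 9.62% were higher with limma-voom, 6.54% with total counts and 5.76% at fold 2. The share was 6.08% with the covariate and between 6.65% and 14.5% with each sample left out. The higher muscle isoforms (7) numbered 4 with limma-voom, 0 with the covariate and 0 with only replicate 2, and 3 to 8 with each sample left out. The other higher isoforms (4) numbered 1 with total counts, 2 at fold 2, 0 with the covariate and 0 with only replicate 2, and 1 to 6 with each sample left out. The number of lower members (1, Pfkfb2, one of the other isoforms) was 2 with total counts or the Wald test (Hk3 added) and 0 at fold 2, with the covariate or with only replicate 2. It was 0 to 1 with each sample left out, where the lower gene was Hk3 in 3 fits and Pygl in 1, and without the filter it was Hk3. Over all genes, the criterion was met by 3241 genes, by 1951 at fold 2, by 1797 with the covariate and by 1166 with only replicate 2. Adjusted calls among the members numbered 9 with the Wald test, beside 12.9% of all genes. They numbered 0 to 3 with each sample left out, where the share of all genes is not given here. The medians of the muscle and the other isoforms were 0.29 and -0.092 with the covariate and 0.18 and -0.21 with only replicate 2.

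The main test did not pair samples by replicate number. The deviations of equally numbered samples from their group means correlated at 0.182, -0.115 and -0.174. From 3 samples per group, these values cannot show whether the samples were paired. With a replicate block, 8 members were higher and 0 lower, beside 8.19% of all genes higher and 8.87% lower. Of the 8 higher members, 2 were other isoforms, a share near that of all genes, so their number is no result about them. Pgam2, Aldoa and Eno1 were no longer higher, with log2 fold changes of 2.88, 0.97 and 0.63.

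Directions also turned. With the covariate, the log2 fold change was -0.22 for Slc2a1, -0.46 for Hk2, -0.055 for Gpi1, -0.20 for Pfkp, -0.53 for Pfkfb1, -0.024 for Pgam1, -0.40 for Pgam2, -0.098 for Ldha, -0.076 for Gys1, -0.34 for Gyg, -0.28 for Gbe1 and -0.015 for Pgm2. With only replicate 2, it was -0.45 for Slc2a1, -0.25 for Slc2a4, -0.72 for Hk2, -0.24 for Gpi1, -0.097 for Pfkl, -0.28 for Pfkp, -0.77 for Pfkfb1, -0.18 for Pgam1, -1.03 for Pgam2, -0.27 for Ldha, -0.65 for Pygm, -0.38 for Gys1, -0.52 for Gyg, -0.42 for Gbe1 and -0.15 for Pgm2. With total counts, it was -0.040 for Pfkp, -0.11 for Gyg and -0.037 for Gbe1. Gyg was -0.0030 with limma-voom, -0.015 without the filter and -0.0037 with at least 10 counts in every sample. With each sample left out, the range was -1.91 to 0.69 for Slc2a3, -0.20 to 0.055 for Hk1, -0.016 to 0.68 for Hk2, -0.0041 to 0.69 for Gpi1, -0.14 to 0.25 for Pfkp, -0.011 to 0.85 for Pfkfb1, -0.25 to 0.021 for Aldoc, -0.21 to 0.60 for Pgam1, -0.55 to 0.58 for Slc16a1, -1.37 to 0.23 for Fbp1, -1.23 to 0.065 for Pygl, -0.15 to 0.25 for Gyg and -0.14 to 0.40 for Gbe1. The covariate and the fit with only replicate 2 take out the muscle-rich samples' difference by construction; for the others the cause was not tested.

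Without division by length, the mean share of Eno3 was 2.56% and 16.0% in the groups with 0% and 3% axitinib, against 7.29% and 33.2% per kilobase. That of Pgam2 was 2.06% and 15.1%, against 4.72% and 26.7%. That of Ldhb was 3.85% and 5.90%, against 7.78% and 11.7%, and that of Pygm 2.23% and 49.5%, against 3.95% and 56.7%. That of Pfkm was 11.4% and 31.4%, against 25.7% and 52.8%. Some orders also turned. By undivided reads, Pfkfb3 (49.4% and 47.7%) led Pfkfb4 (44.8% and 45.8%) in 3%-Axitinib replicates 2 and 3, and Eno1 (54.2%) led Eno3 (28.0%) and Pgam1 (68.3%) led Pgam2 (31.7%) in 3%-Axitinib replicate 1. Depth limits the low genes most, since Phkg1 had 8 reads in 0%-Axitinib replicate 2.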
